A study of Mus musculus with 11 samples.

Results

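The genes described here drive and police cell division: the cyclins and cyclin-dependent kinases, their inhibitors, the E2F and retinoblastoma family, the proteins that license and copy DNA, the enzymes that supply nucleotides, and the machinery of mitosis. They were chosen as a list of 44 named genes, and 43 of them had a row among the 16475 genes measured. Of these, 41 were found under the listed symbol and 2 through their Entrez number, Cdk1 under the older symbol Cdc2a and Cdc45 under Cdc45l. Pcna, the sliding clamp of the replication fork, was not analysed here. Whole kidneys were profiled on Affymetrix arrays from 7 NZB/W F1 mice aged 6 weeks and 4 NZW/BXSB F1 mice aged 8 weeks, 2 lupus-prone strains, all prenephritic and non-proteinuric. The labels record no treatment. The study describes the NZB/W mice as female and the NZW/BXSB mice as male carriers of the Yaa locus, and perfused the animals with saline before harvest. Strain, sex, age and array set therefore cannot be told apart in any difference between the groups, and the labels do not say whether arrays of the strains were run together.

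Division is driven by cyclins that switch on cyclin-dependent kinases in turn. D and E cyclins carry a cell out of quiescence by inactivating the retinoblastoma family and releasing E2F, which turns on the genes for DNA synthesis, and A and B cyclins with Cdk1 then bring it into mitosis. Most cells of a mature kidney rest outside the cycle, tubular cells of young animals still divide at a low rate as the organ grows, and injured tubules re-enter the cycle to repair themselves. In a whole kidney, fewer cycling cells and less RNA per cycling cell cannot be told apart.

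Values are log2 units. Where 3 values are given for NZB/W they are the lowest, median and highest of its 7 kidneys, and 4 values for NZW/BXSB are its replicates 1 to 4. As deposited, the arrays of each strain had a scale of their own, with medians of 7.36 to 7.40 in NZB/W and 8.05 to 8.14 in NZW/BXSB, so quantile normalization over the 11 arrays was used to set a common scale, which holds wherever the deposited scale is not named. A difference is NZB/W minus NZW/BXSB, and a gene is called where limma gave a Benjamini-Hochberg adjusted p below 0.05 over 14419 tested genes. The median tested gene differed by -0.69 on the deposited scale and by -0.01 on the common scale. Within a strain the arrays correlated at 0.985 or above over genes. Proximal tubule markers were strongly present in every kidney, with a mean over 10 genes of 12.11 to 12.43 in NZB/W and 12.05 to 12.14 in NZW/BXSB. The background level, the 95th percentile of the genes that the authors call not above baseline, was 5.42 in NZB/W and 5.03 in NZW/BXSB.

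Of the 43 members, 20 were called, 7 of them higher and 13 lower in NZB/W. That is 46.5% of the members, against 69.4% of all tested genes. By direction, 16.3% of the members were higher in NZB/W, against 33.3% of the genes tested, and 30.2% were lower, against 36.1%. The strains did not overlap for 16 members, 5 higher and 11 lower in NZB/W, while this held for 54.6% of all tested genes. The median difference over the members was 0.02. The 23 members that were not called had differences between -0.28 and 0.29, and their 95% intervals reached from -0.54 to 0.91.

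Several members were close to the background of the arrays. The authors called 39 of 43 above baseline in both strains, and Ccne2, Cdc6, Tyms and Aurkb not above baseline in NZB/W. The means of Ccne2, Cdc6 and Bub1 lay below the background level in both strains, those of Aurkb and Kif11 only in NZB/W, and that of Cdk6 only in NZW/BXSB. In NZB/W, 13 members lay within 1 log2 unit above it. On the deposited scale limma called 0 members higher (0 also at an unadjusted p below 0.05, against 5.56% of all tested genes called) and 39 lower (against 84%), and the members' median difference there was -0.63. The plot of differences by role shows both scales.

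**Figure D1:**
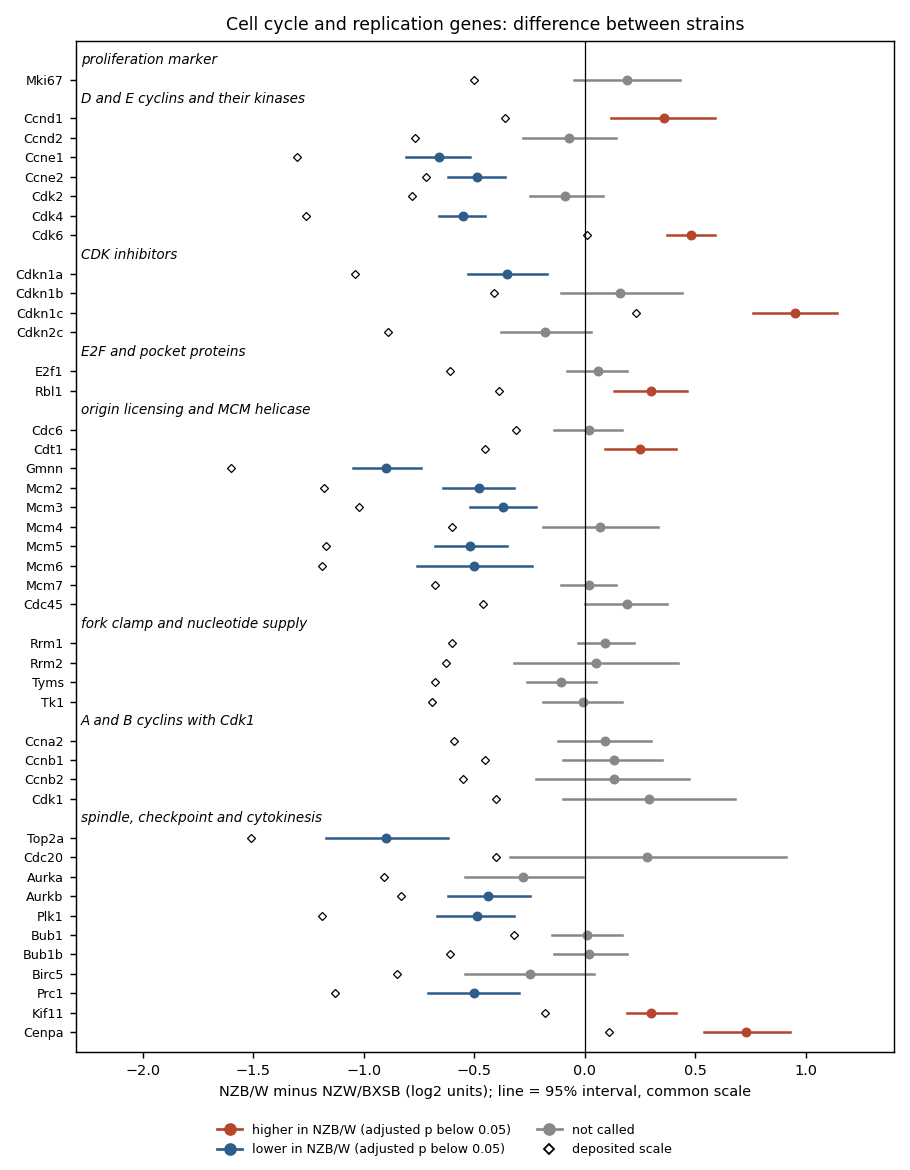
Difference between NZB/W (n = 7) and NZW/BXSB (n = 4) in log2 units for the 43 measured members, by role. Filled circles with lines are the difference and its 95% interval on the common scale, red where called higher and blue where called lower in NZB/W, grey where not called, and open diamonds are the difference on the deposited scale. The 7 red and 13 blue members are spread over most roles, and nearly all diamonds lie left of 0.

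Among the 7 D and E cyclins and their kinases, limma gave 5 calls (71.4%, against 69.4% of all tested genes). The difference was positive for 2 of these and negative for 3. On the deposited scale the class had 0 positive and 6 negative calls, against 5.56% and 84% of all tested genes. Ccnd1, cyclin D1, the partner of Cdk4 and Cdk6, had a lowest, median and highest value of 10.71, 11.12 and 11.32 in NZB/W kidneys, against 10.63, 10.80, 10.78 and 10.47 in NZW/BXSB kidneys. Only NZB/W replicate 1 fell within the NZW/BXSB range. The difference was 0.36 ± 0.11 (SE, adjusted p = 0.00981), whereas on the deposited scale it was -0.36 and called lower. Cdk4, the kinase that cyclin D1 activates, went the other way. It had a lowest, median and highest value of 8.56, 8.67 and 8.76 in NZB/W kidneys, against 9.18, 9.22, 9.23 and 9.29 in NZW/BXSB kidneys. Every NZB/W kidney lay below every NZW/BXSB kidney, a difference of -0.55 ± 0.05 (SE, adjusted p = 3.62e-07), or 1.47-fold.

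Ccne1, cyclin E1, which activates Cdk2 at the start of S phase, was also lower in NZB/W, with 5.60, 5.66 and 5.89 as its lowest, median and highest value there, against 6.20, 6.31, 6.48 and 6.42 in NZW/BXSB. The strains were apart by -0.66 ± 0.07 (SE, adjusted p = 1.13e-06), with NZB/W replicate 4 above the remaining 6 NZB/W kidneys. The NZB/W mean of Ccne1 was only 0.27 above background. Ccne2, cyclin E2, was called lower (-0.49), but its values of 4.02 to 4.29 in NZB/W and 4.56 to 4.76 in NZW/BXSB were below background in both strains, and the difference was -0.03 after median centring. Cdk6, the second kinase of the D cyclins, had 5.36, 5.47 and 5.59 as lowest, median and highest value in NZB/W, against 4.98, 4.97, 4.96 and 5.02 in NZW/BXSB. The NZW/BXSB values were all below the background level of that strain and the NZB/W mean was 0.04 above its own. The gene was called higher in NZB/W (difference 0.48, limma adjusted p = 1.81e-06), and on the deposited scale the difference was 0.01. The bound of 1.35-fold was taken against the NZW/BXSB background level (5.03), which lay below that of NZB/W (5.42). With both means next to their own background, the bound is not a firm minimum. Ccnd2 (-0.07) and Cdk2 (-0.09) were not called.

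Among the inhibitors of these kinases, Cdkn1c had the greatest difference of any member on the common scale. Cdkn1c encodes p57, an imprinted inhibitor that in the kidney marks podocytes. Its lowest, median and highest value was 9.86, 10.21 and 10.42 in NZB/W kidneys, against 9.26, 9.35, 9.21 and 9.09 in NZW/BXSB kidneys. All 7 NZB/W kidneys were above all 4 NZW/BXSB kidneys, a difference of 0.95 ± 0.09 (SE, adjusted p = 5.2e-07), or 1.94-fold, which on the deposited scale was 0.23 and not called (adjusted p = 0.0619). Over 10 podocyte and endothelial markers the mean was 8.43 to 8.63 in NZB/W kidneys and 8.16 to 8.30 in NZW/BXSB kidneys. On the common scale 6 were called higher and 2 lower (80%, against 69.4% of all tested genes). On the deposited scale 0 were called higher and 6 lower, against 5.56% and 84% of all tested genes. The part of these cells in the Cdkn1c difference was not tested.

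Cdkn1a encodes p21, the inhibitor that p53 induces after DNA damage and that rises in injured tubules. It had 7.13, 7.28 and 7.62 as lowest, median and highest value in NZB/W, against 7.56, 7.73, 7.64 and 7.71 in NZW/BXSB. Only NZB/W replicate 4 reached the NZW/BXSB range, and the difference was -0.35 ± 0.08 (SE, adjusted p = 0.00226). Other p53 targets were examined beside it. Of 16 tested, 10 were called lower and 2 higher (75%, against 69.4% of all tested genes), the median of their differences was -0.25 and those with the smallest adjusted p were Ccng1 (-0.68), Trp53inp1 (-0.79), Aen (-0.51) and Perp (-0.40). All 16 were called lower on the deposited scale, as were 84% of all tested genes. Phlda3 and Sesn1, the 2 called higher, were picked out after their values were seen (0.32 and 0.28).

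Cdkn1b, which encodes p27, had 5.48, 5.70 and 6.22 as lowest, median and highest value in NZB/W, against 5.74, 5.61, 5.59 and 5.38 in NZW/BXSB. NZB/W replicate 6 was the high one, the groups overlapped and the gene was not called (0.16, 95% interval -0.11 to 0.44), although it was after median centring (0.29, adjusted p = 0.0358). Cdkn2c, p18, an inhibitor of Cdk4 and Cdk6, was not called either (-0.18), but was called lower without NZB/W replicate 1, which had 9.14 against 8.57 to 8.92 in the remaining 6 NZB/W kidneys. Downstream of the kinases, Rbl1, the retinoblastoma relative p107, had 7.38, 7.51 and 7.75 as lowest, median and highest value in NZB/W, against 7.23, 7.23, 7.34 and 7.23 in NZW/BXSB. The strains did not overlap (0.30 ± 0.08 SE, adjusted p = 0.00402), but on the deposited scale the difference turned to -0.39. E2f1 was not called (0.06).

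DNA can be copied once per cycle because the origins are loaded with the MCM helicase beforehand, by Cdc6 and Cdt1, and geminin, the product of Gmnn, holds Cdt1 in check afterwards. The calls covered 4 of the 6 subunits of this helicase, and 69.4% of all tested genes were called. Mcm2, Mcm3, Mcm5 and Mcm6 were called lower in NZB/W, while Mcm4 (0.07, 95% interval -0.19 to 0.33) and Mcm7 (0.02, -0.11 to 0.14) were not called. The same 4 were called lower under deposited scaling and median centring, and whether they differed from the other 2 was not tested. Mcm4 (-0.60) and Mcm7 (-0.68) were called lower too on the deposited scale, where the median gene stood at -0.69.

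Mcm2 had 7.17, 7.46 and 7.63 as lowest, median and highest value in NZB/W kidneys, against 7.79, 7.92, 7.95 and 7.95 in NZW/BXSB kidneys. The highest NZB/W kidney was replicate 1 and stayed below all NZW/BXSB kidneys, for a difference of -0.48 ± 0.08 (SE, adjusted p = 7.01e-05). Mcm3 had 5.89, 5.93 and 6.29 in NZB/W, against 6.35, 6.36, 6.34 and 6.38 in NZW/BXSB. Replicate 4 alone came close to the NZW/BXSB range (-0.37 ± 0.07 SE, adjusted p = 3.13e-04). Mcm5 had 5.79, 5.89 and 6.20 in NZB/W, against 6.34, 6.34, 6.56 and 6.51 in NZW/BXSB. It did not overlap either and differed by -0.52 ± 0.08 (SE, adjusted p = 4.98e-05). Mcm6 had 7.05, 7.28 and 7.66 in NZB/W, against 7.84, 8.00, 7.85 and 7.62 in NZW/BXSB. NZB/W replicates 4 and 5 reached the lowest NZW/BXSB kidney, and the difference was -0.50 ± 0.12 (SE, adjusted p = 0.00204). The means of Mcm3 and Mcm5 were only 0.57 and 0.50 above background in NZB/W.

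The promoters of Mcm5 and Mcm6 are shown because both genes were lower in NZB/W and both hold words of the E2F site, through which S-phase genes are commonly switched on. The 150 bases before the RefSeq transcription start are given 5′ to 3′ (GRCm38.p6, Mcm5 on the plus strand at chr8:75109359-75109508, Mcm6 on the minus strand at chr1:128359706-128359855). Capitals mark the E2F words TTTCCCGC, TTTCGCGC, TTTGCCGC and TTTGGCGC and the CCAAT box, each searched on both strands, and the E2F words can overlap one another.
Mcm5: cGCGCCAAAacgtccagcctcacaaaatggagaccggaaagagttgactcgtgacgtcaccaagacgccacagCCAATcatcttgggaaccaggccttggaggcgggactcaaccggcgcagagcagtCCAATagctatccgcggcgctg
Mcm6: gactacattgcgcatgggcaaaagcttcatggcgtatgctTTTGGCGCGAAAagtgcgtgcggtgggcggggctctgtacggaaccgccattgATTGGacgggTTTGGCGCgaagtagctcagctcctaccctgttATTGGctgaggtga

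RefSeq promoters were matched for 35 of the 43 members, with 39 promoters. In the 250 bases before the start, an E2F word was found in 4 of 9 promoters of the licensing and MCM genes (44.4%) and in 1.86% of all 32851 promoters of the table. These were promoters of Mcm5, Mcm6, Mcm7 and Cdc6, of which 2 were called and 2 were not. The called genes Mcm2, Mcm3 and Cdt1 held no E2F word, and 8 of the 10 licensing genes had a matched promoter. A match is a stretch of letters and says nothing of binding in these kidneys.

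Gmnn, geminin, had 7.73, 7.81 and 8.06 as lowest, median and highest value in NZB/W, against 8.67, 8.83, 8.86 and 8.68 in NZW/BXSB. The lowest NZW/BXSB kidney was well above the highest NZB/W kidney, and the difference of -0.90 ± 0.07 (SE), or 1.86-fold, had the smallest adjusted p of the members (1.2e-07). Cdt1, the loader that geminin binds, had 7.84, 8.04 and 8.12 in NZB/W, against 7.78, 7.77, 7.90 and 7.55 in NZW/BXSB. Here the strains overlapped, with NZW/BXSB replicate 3 above NZB/W replicates 6 and 7. Cdt1 was called higher by 0.25 ± 0.07 (SE, adjusted p = 0.00857), but its difference on the deposited scale was -0.45. Cdc6, below background in both strains, differed by 0.02, and Cdc45, part of the active helicase, by 0.19 (95% interval 0.00 to 0.37, adjusted p = 0.0645).

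**Figure D2:**
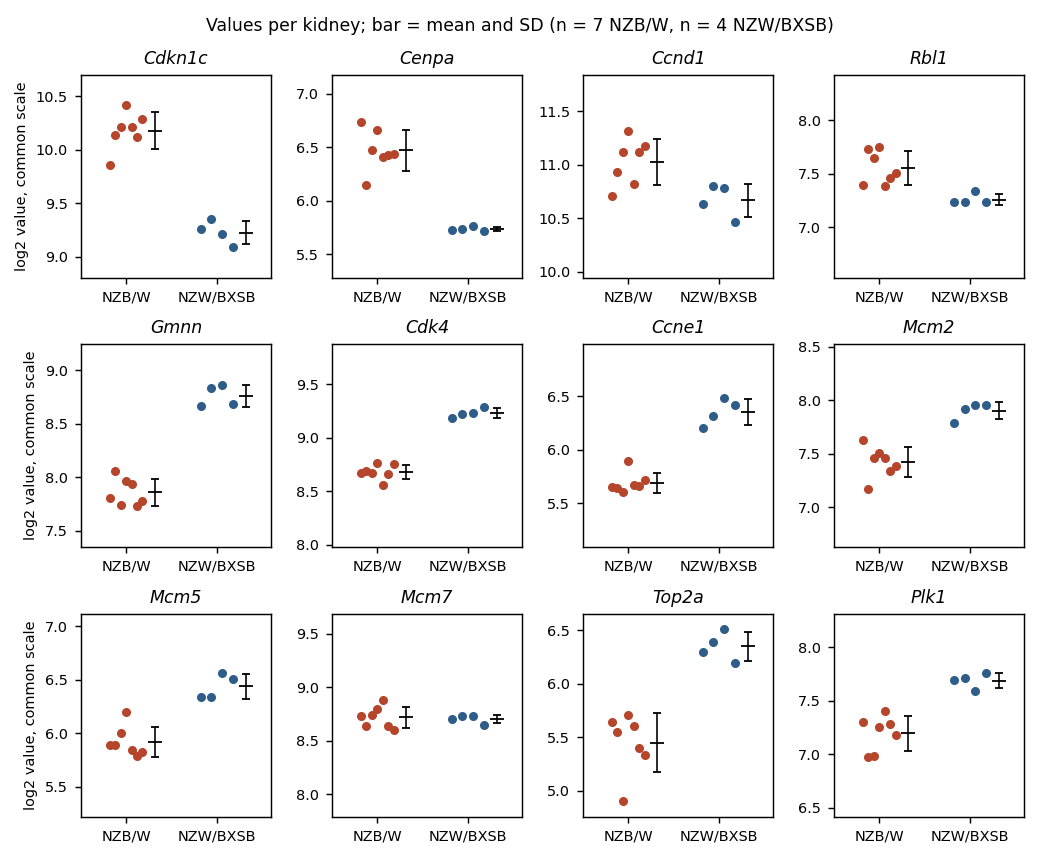
Log2 values of 12 members in each kidney on the common scale, NZB/W (n = 7, red) and NZW/BXSB (n = 4, blue), with the mean and SD beside the points. Every panel spans the same number of log2 units. The strains lie apart for Cdkn1c, Cenpa, Rbl1, Gmnn, Cdk4, Ccne1, Mcm2, Mcm5, Top2a and Plk1, and overlap for Ccnd1 and Mcm7.

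Replication genes outside the member list were tested beside the members. Of 41 further origin, polymerase and fork genes tested, 20 were called lower and 7 higher in NZB/W (65.9%, against 69.4% of all tested genes). The median of their differences was -0.15. On the deposited scale 38 were lower and 1 higher, against 84% and 5.56% of all tested genes. Rfc4, a subunit of the clamp loader, was lower, with 5.28 to 5.49 in NZB/W, against 6.78, 6.55, 6.79 and 6.38 in NZW/BXSB, at least 2.30-fold (adjusted p = 1.66e-08). Pole, the catalytic subunit of the leading-strand polymerase, was higher, with 6.66 to 6.90 in NZB/W, against 6.01, 5.71, 5.74 and 5.67 in NZW/BXSB (0.99, adjusted p = 2.94e-08). Orc1, of the origin recognition complex, was higher by 0.76 and Gins3, which joins Cdc45 at the helicase, by 0.59. Deposited-scale differences were 0.36 for Pole, 0.07 for Orc1 and -0.08 for Gins3.

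No enzyme of nucleotide supply was called, against 69.4% of all tested genes. Rrm1 (0.09) and Rrm2 (0.05), the subunits of ribonucleotide reductase, Tyms (-0.11), thymidylate synthase, and Tk1 (-0.01), thymidine kinase, gave 0 calls of 4 in limma, also at an unadjusted p below 0.05. Their 95% intervals together ran from -0.32 to 0.42, and the upper and lower ends both belonged to Rrm2. That gene ranged from 6.50 to 7.57 in NZB/W, with replicate 1 highest, and from 6.67 to 7.05 in NZW/BXSB. On the deposited scale all 4 enzymes were called lower (-0.69 to -0.60), as were 84% of all tested genes.

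Mki67, which encodes Ki-67, the standard histological marker of cycling cells, was not called. It had 7.69, 7.78 and 8.24 as lowest, median and highest value in NZB/W, against 7.60, 7.73, 7.64 and 7.84 in NZW/BXSB. NZB/W replicates 1 (8.22) and 4 (8.24) were above every NZW/BXSB kidney and the other 5 NZB/W kidneys were within the NZW/BXSB range. The difference was 0.19 (95% interval -0.05 to 0.43, adjusted p = 0.139), and -0.50 on the deposited scale.

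The A and B cyclins and Cdk1, which together start mitosis, gave 0 calls of 4 in limma, and 0 at an unadjusted p below 0.05. Over all tested genes 69.4% were called. The differences of the 4 were 0.09 for Ccna2, 0.13 for Ccnb1, 0.13 for Ccnb2 and 0.29 for Cdk1. All 4 were called lower on the deposited scale (-0.59 to -0.40), as were 84% of all tested genes. The median gene differed by -0.69 there. Of the 11 genes of the spindle, its checkpoint and cytokinesis, 2 were called higher and 4 lower (54.5%, against 69.4% of all tested genes).

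Top2a, topoisomerase II alpha, which untangles sister chromosomes, had 4.90, 5.55 and 5.71 as lowest, median and highest value in NZB/W, against 6.30, 6.39, 6.51 and 6.19 in NZW/BXSB. The strains were clearly apart (-0.90 ± 0.13 SE, adjusted p = 3.04e-05), and the NZB/W mean was 0.03 above background. Plk1, polo-like kinase 1, a driver of mitotic entry and spindle assembly, had 6.97, 7.25 and 7.40 in NZB/W, against 7.69, 7.71, 7.59 and 7.76 in NZW/BXSB. It was lower in every NZB/W kidney (-0.49 ± 0.08 SE, adjusted p = 1.18e-04). Prc1, which bundles the microtubules of the central spindle, had 5.56, 5.59 and 6.06 in NZB/W, against 6.22, 6.24, 6.14 and 6.25 in NZW/BXSB. NZB/W replicate 1 was the nearest to the NZW/BXSB kidneys (-0.50 ± 0.09 SE, adjusted p = 3.04e-04). The NZB/W mean of Prc1 was only 0.29 above background. Aurkb, a kinase of the chromosomal passenger complex, had 4.41, 4.55 and 4.92 in NZB/W, against 5.05, 5.06, 4.96 and 5.15 in NZW/BXSB. It was called lower (-0.44), but its mean in NZB/W was below background and in NZW/BXSB 0.03 above it, and it was not called after median centring (-0.14).

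Cenpa, the histone H3 variant that marks centromeres, was higher in NZB/W. Its lowest, median and highest value was 6.15, 6.44 and 6.74 in NZB/W kidneys, against 5.73, 5.74, 5.76 and 5.72 in NZW/BXSB kidneys. The strains did not overlap, and the difference was 0.73 ± 0.09 (SE, adjusted p = 7.19e-06), or 1.66-fold, and 0.11 and uncalled on the deposited scale. Kif11, the kinesin that pushes spindle poles apart, was called higher by 0.30 on values at or next to background (5.25 to 5.47 in NZB/W and 5.04 to 5.10 in NZW/BXSB), and had -0.18 on the deposited scale. Cdc20 (0.28), Aurka (-0.28), Bub1 (0.01), Bub1b (0.02) and Birc5 (-0.25) were not called.

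Among 40 further mitosis genes tested, 12 were called higher and 16 lower (70%, against 69.4% of all tested genes), around a median of -0.05. On the deposited scale 0 were higher and 33 lower, against 5.56% and 84% of all tested genes. The smallest adjusted p belonged to Kif23, a kinesin of the central spindle (-1.19, at least 1.09-fold), Tacc3, a spindle protein (-1.19, at least 1.82-fold), Kif22, a chromosome-arm kinesin (-1.10, 2.14-fold) and Cdc25c, the phosphatase that activates Cdk1 (-0.78, at least 1.72-fold). All 4 were lower in NZB/W on the common, centred and deposited scales, and the bounds belong to genes below background or not above baseline in NZB/W. Of 35 other regulators of the cycle, 14 were called higher and 13 lower (77.1%, against 69.4% of all tested genes). On the deposited scale 0 were called higher and 31 lower, against 5.56% and 84% of all tested genes. The called genes included Ccni, cyclin I (0.48), and Pkmyt1, a kinase that restrains Cdk1 (0.77). On the deposited scale these 2 were at -0.23 and 0.08. Lin9, of the complex that switches between repression and mitotic transcription, was called lower (-0.80) with an NZB/W mean below background, and Ccng1 is given above.

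Among the NZB/W kidneys, 1 stood apart in the mitotic genes. Of the 15 mitotic members (A and B cyclins, Cdk1 and the spindle group), 12 had their highest NZB/W value in replicate 1, against 20.6% of all tested genes. The mean over the 15 genes was 6.49 in replicate 1 and 5.90 to 6.15 in the remaining 6 NZB/W kidneys, and it was 6.06 to 6.14 in NZW/BXSB. A list of 43 other mitosis genes had the same kidney highest for 23 genes, with a mean of 6.08 there, 5.83 to 5.97 in the remaining 6 NZB/W kidneys and 6.00 to 6.04 in NZW/BXSB.

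Cdc20, which activates the ubiquitin ligase that ends mitosis, was the extreme case. Replicate 1 had 8.63, against 6.76 to 7.59 in the remaining 6 NZB/W kidneys and 6.70, 7.09, 7.07 and 7.01 in NZW/BXSB. Its SD between NZB/W kidneys, 0.67, was above that of 99.7% of the tested genes. Cdk1 stood at 8.22 in replicate 1, against 7.10 to 7.72 in the remaining 6 NZB/W kidneys and 6.98 to 7.32 in NZW/BXSB. Ccnb2, cyclin B2, stood at 7.33, against 6.32 to 6.92 in the remaining 6 NZB/W kidneys and 6.48 to 6.58 in NZW/BXSB. Replicate 1 was thus above both the rest of its strain and the other strain for these 3 genes, as it was for Ccna2 (7.23), Ccnb1 (6.15), Aurka (6.41), Birc5 (6.18) and, in nucleotide supply, Rrm2 (7.57). Survivin, the product of Birc5, and Aurora A, that of Aurka, act at the spindle and in cytokinesis.

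The excess did not run through the whole list. For the licensing and MCM genes replicate 1 had a mean of 6.91, within the 6.78 to 7.08 of the remaining 6 NZB/W kidneys, and replicate 4 was highest. Replicate 1 was the lowest NZB/W kidney for 7 of the 43 members, against 18.7% of all tested genes, among them Ccnd1 (10.71), Cdkn1c (9.86) and Mcm4 (6.70). Replicate 4 was highest for 14 of the 43 members, against 16.4% of all tested genes, among them Mki67, Ccnd1, Cdkn1a and Cdkn1c. Replicate 1 was highest for 18, against 20.6% of all tested genes.

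Markers of other cells were compared in this kidney. The mean over 18 leukocyte markers was 7.20 in replicate 1 and 6.96 to 7.20 in the remaining 6 NZB/W kidneys, with 6.94 to 7.13 in NZW/BXSB. The mean hides 6 of the 18 that were higher in replicate 1 than in all other kidneys of both strains, among them Cd3e, Cd68, Adgre1, Lyz2 and Tyrobp. The macrophage and granulocyte gene Lyz2 stood at 9.84 there, against 8.72 to 9.38 in the remaining 6 NZB/W kidneys and 9.08 to 9.62 in NZW/BXSB, and Tyrobp, a signalling adaptor of myeloid and natural killer cells, at 8.98, against 8.28 to 8.71 in those 6 and 8.26 to 8.74 in NZW/BXSB. These genes were singled out after their values were seen. Over all tested genes, replicate 1 was the highest NZB/W kidney for 20.6%. Cd68 led only narrowly, at 6.85 against at most 6.83 in the remaining 6. Ptprc and Coro1a, also picked afterwards, were low in replicate 1. Ptprc had 7.85, against 7.59 to 8.58 in the remaining 6, and Coro1a had 6.70, against 6.68 to 7.24. Replicate 1 was the lowest NZB/W kidney for 0 of the 18 markers. Cd3g and Ms4a1 lay below background in both strains. Over 8 erythroid markers the mean was 5.96 in replicate 1, 5.88 to 5.97 in the remaining 6 NZB/W kidneys and 5.58 to 5.98 in NZW/BXSB, with Rhag among those below background in both strains. Over 12 markers of nephron progenitors and the developing kidney the mean was 6.52 in replicate 1 and 6.50 to 6.58 in the remaining 6 NZB/W kidneys. Eya1 and Osr1 lay below background in both strains, Cited1 only in NZB/W and Ret only in NZW/BXSB. The part of other cell types in the mitotic values was not tested. Without replicate 1, no member lost its call, and Cdkn2c, Aurka and Birc5 were also called lower, which made 7 members higher and 16 lower.

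**Figure D3:**
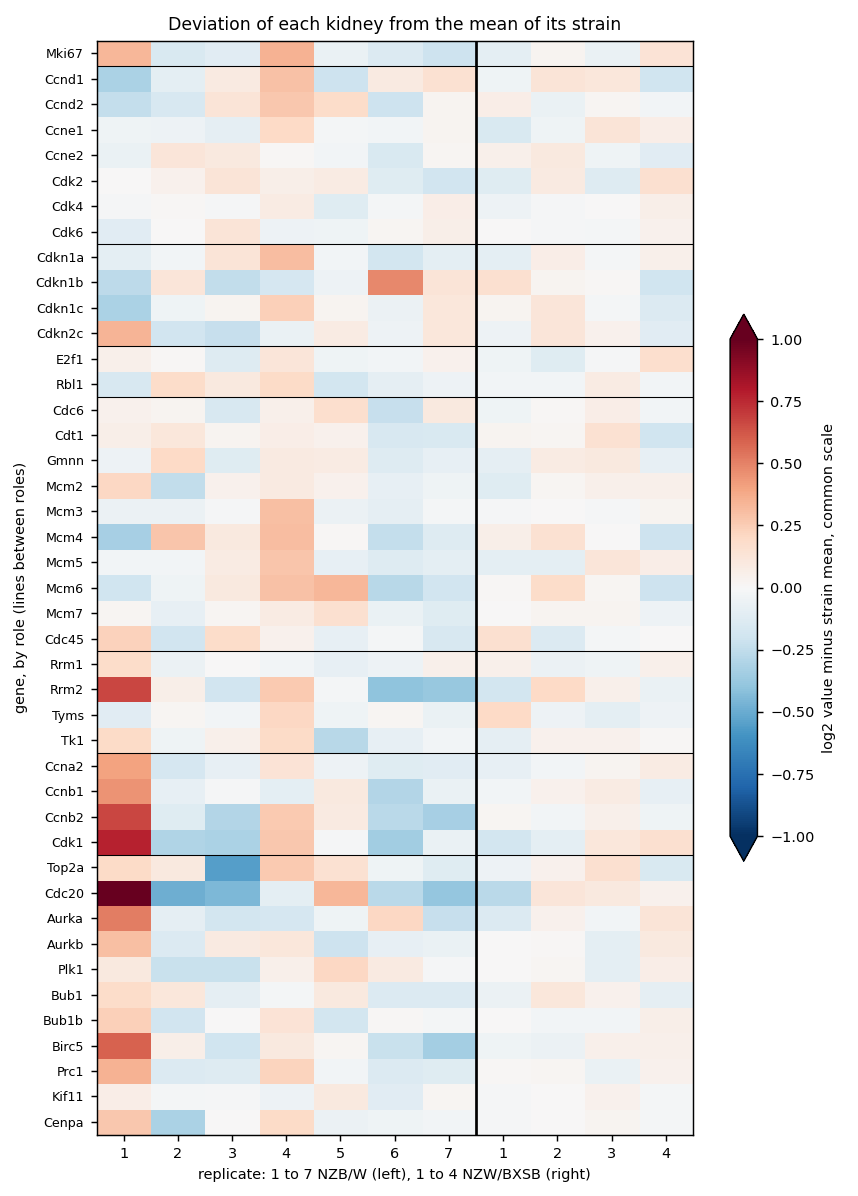
Deviation of each kidney from the mean of its own strain, in log2 units on the common scale, for the 43 members in rows, grouped by role as in the plot of differences. Columns are NZB/W replicates 1 to 7 on the left of the thick line and NZW/BXSB replicates 1 to 4 on the right. The column of NZB/W replicate 1 is red to some degree from Ccna2 down, most strongly for Cdc20, Cdk1 and Ccnb2.

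The promoters of Cdk1, Cdc20 and Ccnb2 are shown as those of the genes that set replicate 1 apart most, with that of Top2a, the mitotic member with the greatest difference between the strains. Mitotic genes are commonly read through CCAAT boxes bound by NF-Y and through the cell cycle homology region (CHR), whose core was searched as TTTGAA. Capitals mark the CCAAT box, the core TTTGAA and the E2F words, on either strand, in the 150 bases before the RefSeq start (GRCm38.p6, all on the minus strand: Cdk1 at chr10:69352913-69353062, Cdc20 at chr4:118437344-118437493, Ccnb2 at chr9:70421555-70421704 and Top2a at chr11:99024190-99024339).
Cdk1: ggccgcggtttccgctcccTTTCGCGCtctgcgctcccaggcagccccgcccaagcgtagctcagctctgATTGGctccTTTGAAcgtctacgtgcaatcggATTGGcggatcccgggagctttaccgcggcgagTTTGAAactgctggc
Cdc20: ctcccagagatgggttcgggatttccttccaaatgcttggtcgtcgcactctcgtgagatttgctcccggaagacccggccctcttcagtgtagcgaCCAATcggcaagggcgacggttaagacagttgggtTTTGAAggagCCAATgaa
Ccnb2: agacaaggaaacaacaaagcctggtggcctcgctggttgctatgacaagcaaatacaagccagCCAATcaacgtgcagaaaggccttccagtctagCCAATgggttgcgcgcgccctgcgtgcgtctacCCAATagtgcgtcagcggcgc
Top2a: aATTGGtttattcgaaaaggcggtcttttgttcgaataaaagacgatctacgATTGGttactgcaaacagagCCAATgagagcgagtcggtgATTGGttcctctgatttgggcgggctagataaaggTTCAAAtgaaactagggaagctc

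In the 250 bases before the start, a CCAAT box was found in 13 of 14 promoters of the mitotic members (92.9%), against 33.8% of all promoters in the table, and TTTGAA in 6 of 14 (42.9%), against 16.0%. For the other mitosis genes the shares were 63.2% and 34.2% of 38 promoters. Of the 13 mitotic members with a matched promoter, Birc5 had no CCAAT box in this window. Top2a and Plk1, lower in NZB/W, and Cdc20 and Cdk1, not called, all held CCAAT boxes.

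**Figure D4:**
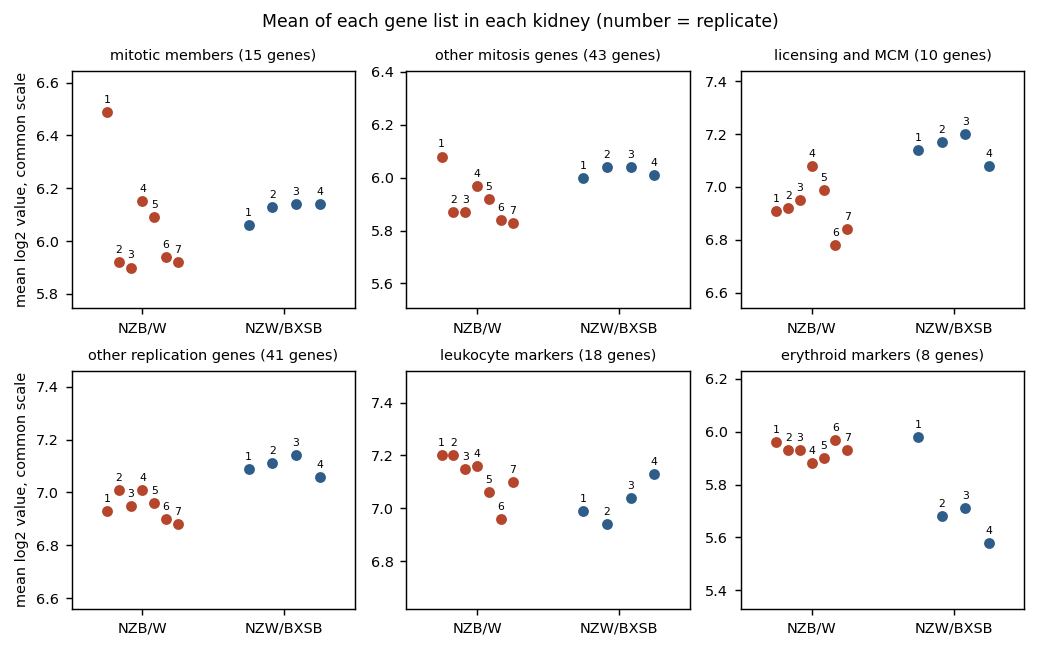
Mean log2 value of 6 gene lists in each kidney on the common scale, NZB/W (red) left and NZW/BXSB (blue) right, with the replicate number above each point and the same span of log2 units in every panel. NZB/W replicate 1 stands above the other NZB/W kidneys for the mitotic members (6.49) and the other mitosis genes (6.08), and lies among them for the licensing, replication and erythroid lists.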

How the data were processed

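RMA is the tool that the submitters' processing notes give, with no version, and the authors deposited its log2 values, 1 for each Entrez gene. They also deposited a Yes or No call per gene and strain for expression above a baseline set on negative control probes, an annotation in words with no other value. The cause of the different strain scales was not tested, and the genome build behind the probe sets is not given in the sources used here. Of 16539 rows, 64 were control probe sets. The 14419 genes called Yes in at least 1 strain were tested on quantile-normalized values with limma 3.58.1 (lmFit, eBayes, R 4.3.3), NZB/W minus NZW/BXSB, with Benjamini-Hochberg adjustment over all of them. Quantile normalization assumes 1 signal distribution for both strains and removes a shift of most genes. A fold is a lower bound where the dimmer strain was called No or lay below the background level, taken against the higher of that level and its own mean, and no fold is given where both lay there or the bound is under 1. The limma fit was tested on simulated data. That test did not cover the normalization, the filter, the background level or the fold bounds. Each array held 1 kidney, and 11 arrays limit the precision.

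The members and lists were chosen with earlier results of these data known. All members are named, with each NZW/BXSB value and the lowest, median and highest NZB/W value for called members (only ranges for Ccne2 and Kif11, which lay at background) and for Mki67, Cdkn1b and others fixed by name, and up to 4 genes with the smallest adjusted p for other lists (replication, mitosis, cell cycle control, p53 targets, and markers of nephron progenitors, leukocytes, erythroid cells, proximal tubule, distal nephron, podocytes and endothelium), of which some genes are not reported here. Alternatives were the deposited scale, median centring, no filter, a filter to genes above baseline in each strain, limma's intensity trend, the study's limits (adjusted p up to 0.001 with a fold from 1.4 upward or 0.7 downward), leaving out arrays, and a replicate block.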

Additional observations from a re-analysis of the deposited data

Results flagged for a closer look

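In 86 sets of values (43 members in 2 strains), 6 held a kidney set apart from the rest of its strain by Dixon's test at the 95% level, where chance marks about 1 in 20. In NZB/W all 3 were replicate 4: it had the highest Ccne1 value (5.89, against 5.60 to 5.72 in the other kidneys), the highest Mcm3 value (6.29, against 5.89 to 5.98) and the highest Tyms value (5.74, against 5.42 to 5.55). No value of NZB/W replicate 1 was flagged, that of Cdc20 included. In NZW/BXSB, replicate 3 had the highest Rbl1 value (7.34, against 7.23 in the other 3), replicate 1 the lowest Mcm2 value (7.79, against 7.92 to 7.95) and replicate 1 the highest Tyms value (5.84, against 5.54 to 5.59). The calls of Ccne1, Mcm3, Mcm2 and Rbl1 held without these kidneys. Their part in other values was not tested.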

How the results depend on the processing

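Without a filter, with only genes above baseline in both strains, with an intensity trend and without NZB/W replicates 6 and 7 together, no member that was fitted changed its call or direction. Leaving out 1 kidney at a time gave 7 to 8 members higher and 13 to 16 lower. On the deposited scale the counts were 0 higher and 39 lower (801 and 12105 over all tested genes), after median centring 11 higher and 11 lower, and under the study's limits 2 higher (Cdkn1c, Cenpa) and 5 lower (Ccne1, Cdk4, Gmnn, Mcm5, Top2a), with 2056 and 1963 over all tested genes. Median centring lost Ccne2 and Aurkb and added Cdkn1b, Cdc6, Cdc45 and Bub1, and 4 of these 6 lay below background in at least 1 strain.

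On the deposited scale 20 members had the opposite sign, of which Cdc20 (-0.40) was not called there and 19 were called lower: Mki67 (-0.50), Ccnd1 (-0.36), Cdkn1b (-0.41), E2f1 (-0.61), Rbl1 (-0.39), Cdc6 (-0.31), Cdt1 (-0.45), Mcm4 (-0.60), Mcm7 (-0.68), Cdc45 (-0.46), Rrm1 (-0.60), Rrm2 (-0.63), Ccna2 (-0.59), Ccnb1 (-0.45), Ccnb2 (-0.55), Cdk1 (-0.40), Bub1 (-0.32), Bub1b (-0.61) and Kif11 (-0.18). That scale keeps the offset of the median gene (-0.69). The cause of the offset was not tested.

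The strains share replicate numbers 1 to 4, and the labels do not say whether these numbers pair the kidneys. Deviations of same-numbered kidneys from their strain means correlated at -0.08, 0.28, -0.002 and -0.13 over genes. Each deviation also holds the kidney's own variation, so these correlations cannot decide whether the kidneys were paired. A fit with the replicate block on those 8 kidneys gave 9 members higher and 13 lower, with Mki67 and Cdc45 added.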

Other observations

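Markers of the developing kidney, where division is densest, were tested beside the members. Of 9 nephron progenitor and developing kidney genes tested, 5 were called lower and 2 higher in NZB/W kidneys (77.8%, against 69.4% of all tested genes). The median of their differences was -0.33. On the deposited scale 8 were lower and 0 higher, against 84% and 5.56% of all tested genes. Lhx1, a transcription factor of the early nephron, averaged 6.54 in NZB/W and 7.12 in NZW/BXSB (-0.58). Wnt9b, an inducer of nephrons, differed by -0.46. Cited1, a marker of uninduced progenitors, was not above baseline in NZB/W and was at least 1.29-fold lower there. Meox1 had 7.83 to 8.15 in NZB/W, against 7.44, 7.11, 7.27 and 7.32 in NZW/BXSB (0.69). Meox1 was at 0.00 on the deposited scale. The NZB/W mice were 6 weeks and the NZW/BXSB mice 8 weeks old, and age cannot be told apart from strain.

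Of 10 proximal tubule markers limma called 5 higher and 2 lower in the NZB/W kidneys, of 9 distal nephron markers 6 higher and 0 lower (0 also at an unadjusted p below 0.05), of 18 leukocyte markers 8 higher and 4 lower, and of 6 tested erythroid markers 3 higher and 2 lower. Over all tested genes 33.3% were higher and 36.1% lower. The deposited scale gave 1 higher and 8 lower for the proximal, 0 and 7 for the distal, 1 and 14 for the leukocyte and 0 and 3 for the erythroid markers. Of all tested genes, 5.56% were higher and 84% lower there. Every list given 0 higher on that scale also had 0 higher at an unadjusted p below 0.05 in limma.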
